A study of Mus musculus with 12 samples.

Results

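The 8 genes described here, Rgs1, Rgs2, Rgs3, Rgs8, Rgs10, Rgs14, Rgs16 and Rgs19, encode regulators of G-protein signaling and were followed through tumor-infiltrating CD8+ T cells of A2AR eGFP reporter mice. They were chosen by name from the 22 Rgs genes among 52636 identifiers in the count table, with earlier results of these counts known, and Rgs8 was set against the other 7 because of its level after treatment. Their mean levels over all libraries ran from 16.8 CPM (counts scaled to the same library size) for Rgs8, the lowest of the 8, to 955 CPM for Rgs2, while the next RGS gene below them, Rgs12, had 3.08 CPM. All 8 passed the filter on low counts, which kept 14173 genes.

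Both GFP+ and GFP- cells came from the same kind of mouse. It carries Tg(Adora2a-EGFP)EP141Gsat, a bacterial artificial chromosome in which the regulatory sequences of Adora2a drive eGFP, on a C57BL/6 background, and it was 6 to 16 weeks old. GFP therefore reads the transgene, and the animal's own Adora2a gene is still present in every group. The tumors grew from AT3ova, mouse mammary carcinoma cells that make ovalbumin as a model antigen, seeded under the skin with 500000 cells and taken at day 21. Mice were either non-treated or given anti-PD-L1, an antibody that blocks the ligand of the checkpoint receptor PD-1, at days 14 and 18. There were 3 libraries for each of the 4 combinations of GFP and treatment, each pooled from 3 mice, so that the spread between libraries is a spread between pools. They are named by the library codes KT13 to KT24. The comparisons ask which genes differ with the activity of the adenosine receptor gene and with PD-L1 blockade.

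RGS proteins shorten signals from G protein-coupled receptors. They speed the hydrolysis of GTP by the alpha subunit of the G protein, which then returns to its resting state, and most act on the Gi and Gq classes of alpha subunits. Chemokine receptors of T cells signal through Gi, and RGS proteins are known as brakes on lymphocyte migration. The adenosine receptor A2AR instead couples to Gs, which raises cyclic AMP.

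QuantSeq libraries hold reads from the 3′ ends of transcripts, so a transcript gives reads independently of its length and levels of different genes can be set side by side as CPM. Total counts were 11292699 to 19023900 per library. Adora2a, the check of the sort, had 19.7 to 34.6 CPM in GFP- libraries and 60.2 to 111 CPM in GFP+ libraries. KT13 (non-treated GFP+) and KT21 (anti-PD-L1 GFP+) stood apart, with median Spearman correlations of 0.941 and 0.935 with the other 11 libraries against 0.967 to 0.977 for the rest. Results are given with 12 libraries, and only where stated also with the 10 that leave out KT13 and KT21. Cd8a (799 to 1360 CPM) and Cd3e (171 to 288 CPM) were present in every library, while Cd4 reached at most 0.919 CPM. In sorted bulk cells, fewer cells of a type and less RNA per cell cannot be told apart. Codes KT13 to KT18 were all non-treated and KT19 to KT24 all anti-PD-L1, and the labels give no batch, so any difference that followed the codes cannot be told apart from treatment.

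Of the 8 genes, 4 lie on mouse chromosome 1. Rgs2 (chr1:143999338-144004161, minus strand, GRCm38) and Rgs1 (chr1:144242296-144249242, minus strand) are separated by 238 kb, and Rgs8 (chr1:153653025-153700323, plus strand) ends 40.0 kb before Rgs16 (chr1:153740349-153745468, plus strand). Promoter windows of RefSeq (GRCm38.p6), which run from 250 bases before to 50 bases after an annotated start, were found for 6 of the 8 genes, 11 windows in all. The windows of the first start of Rgs8, of its neighbor Rgs16 and of Rgs2 are shown because Rgs8 had the largest change with treatment, Rgs16 is its nearest RGS gene and Rgs2 had the highest level of the 8. They are written 5′ to 3′ on the strand of the gene, at chr1:153652787-153653086 for Rgs8, chr1:153740103-153740402 for Rgs16 and chr1:144004100-144004399 for Rgs2, and capitals mark TGACG, the short form of the cyclic AMP response element, or its reverse complement.
Rgs8: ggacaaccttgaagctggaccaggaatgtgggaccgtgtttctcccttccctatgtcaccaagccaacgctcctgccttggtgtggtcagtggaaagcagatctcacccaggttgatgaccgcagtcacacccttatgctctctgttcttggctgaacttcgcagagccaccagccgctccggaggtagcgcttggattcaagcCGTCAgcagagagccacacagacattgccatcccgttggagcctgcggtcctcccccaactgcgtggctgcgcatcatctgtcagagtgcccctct
Rgs16: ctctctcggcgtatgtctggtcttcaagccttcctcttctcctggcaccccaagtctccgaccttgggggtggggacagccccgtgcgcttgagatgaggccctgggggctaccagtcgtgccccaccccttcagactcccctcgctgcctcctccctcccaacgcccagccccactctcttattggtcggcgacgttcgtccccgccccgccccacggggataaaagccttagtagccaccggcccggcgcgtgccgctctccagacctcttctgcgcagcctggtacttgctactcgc
Rgs2: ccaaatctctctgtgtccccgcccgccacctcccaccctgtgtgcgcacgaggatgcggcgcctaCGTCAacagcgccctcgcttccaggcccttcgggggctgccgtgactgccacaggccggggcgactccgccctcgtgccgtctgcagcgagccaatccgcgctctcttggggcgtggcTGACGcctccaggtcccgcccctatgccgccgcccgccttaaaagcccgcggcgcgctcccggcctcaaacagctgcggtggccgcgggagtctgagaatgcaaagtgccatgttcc
TGACG was matched on both strands once in the Rgs8 window and 2 times in the Rgs2 window, and in no other window of the 8 genes. It is a common string, found in 20.8% of all 32851 promoter windows. The full element TGACGTCA, which contains it, was in 1.79% of all windows, the STAT-type string TTCNNNGAA in 8.30% and the AP-1 string TGANTCA in 7.81%, and none of these was in a window of the 8 genes. A match describes letters only and was not tied to any factor here.

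Rgs8 was the gene of the group whose level differed most with treatment. It belongs to the small R4 class of RGS proteins, which hold little beyond the RGS domain, and is known mainly from neurons. In non-treated GFP- cells it had 13.0 CPM (KT14), 8.88 CPM (KT16) and 13.8 CPM (KT18), and in non-treated GFP+ cells 11.5 CPM (KT13), 5.76 CPM (KT15) and 7.90 CPM (KT17). After anti-PD-L1, GFP- cells had 19.7 CPM (KT20), 20.2 CPM (KT22) and 23.8 CPM (KT24), and GFP+ cells had 16.8 CPM (KT19), 20.6 CPM (KT21) and 39.1 CPM (KT23). Each of the 6 anti-PD-L1 libraries was above each of the 6 non-treated libraries, and KT23 was far above the other 5. Across all tested genes, 0.289% showed such a separation in this direction, but Rgs8 was singled out for this pattern, so its separation is a description and no p-value is given for it. The underlying counts were 91 to 230 in non-treated and 261 to 528 in anti-PD-L1 libraries, with a counting error of 10.5% at the lowest and 4.35% at the highest count.

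**Figure D1:**
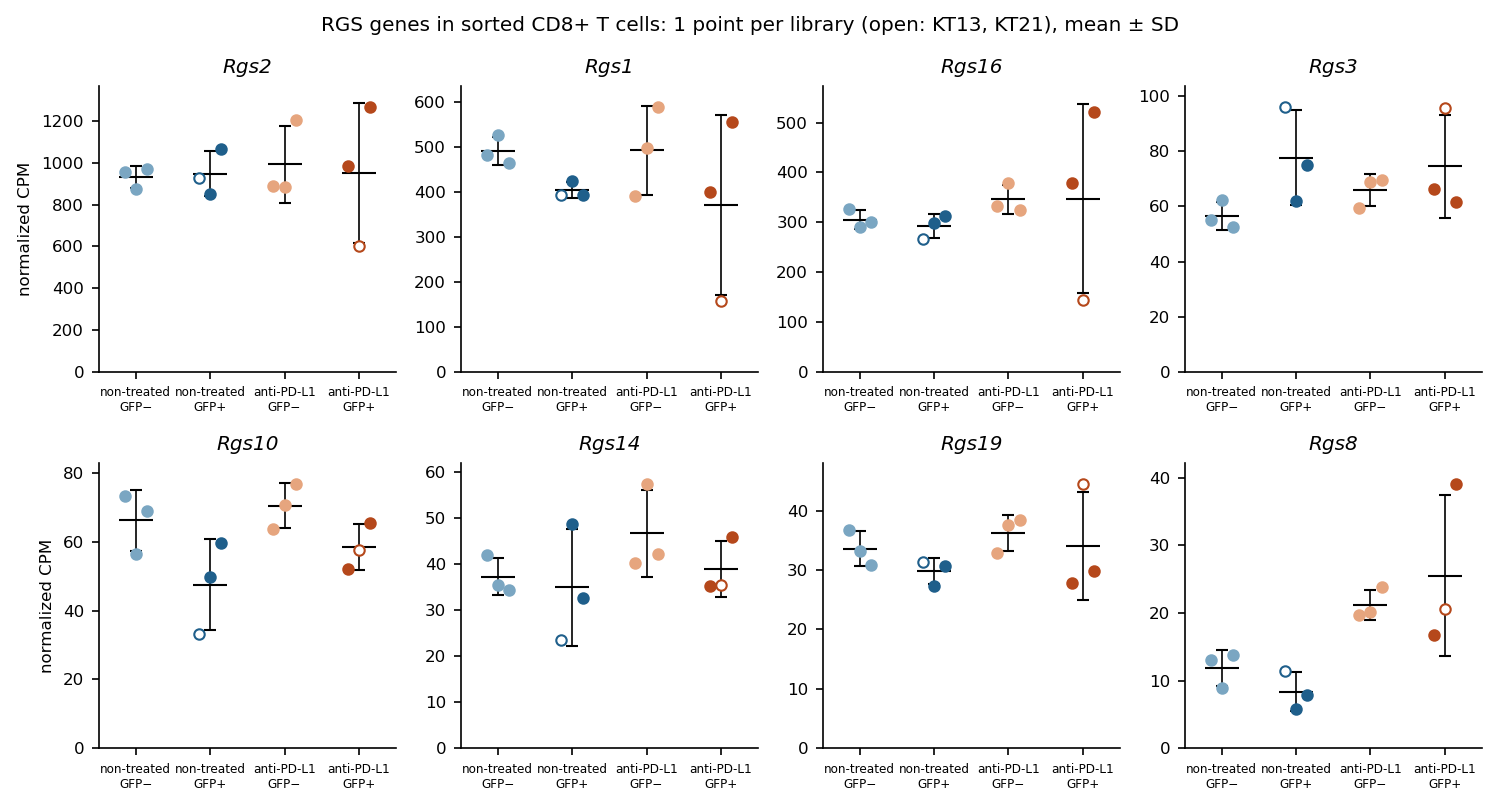
TMM-normalized CPM of the 8 RGS genes (linear axes from 0, scaled per gene) in the 4 groups of CD8+ T cells, with 1 point per library, open points for KT13 and KT21, and bars for the mean ± SD of 3 libraries. Rgs8 lies between 16.8 and 39.1 CPM in the anti-PD-L1 libraries and between 5.76 and 13.8 CPM in the non-treated ones, while the groups of the other genes overlap between treatments.

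In order of their means, the 4 groups had 8.38 ± 2.89 CPM of Rgs8 (SD, n = 3 in each group; non-treated GFP+), 11.9 ± 2.67 CPM (non-treated GFP-), 21.2 ± 2.24 CPM (anti-PD-L1 GFP-) and 25.5 ± 11.9 CPM (anti-PD-L1 GFP+). The GFP+ and GFP- groups of the same treatment overlapped, so that neighbors in this order differed beyond their spread only at the step between treatments. In GFP+ cells the fitted log2 fold change with anti-PD-L1 was 1.61 ± 0.33 (SE), a 3.05-fold higher level, and in GFP- cells it was 0.83 ± 0.32, a 1.78-fold higher level. The difference between these 2 changes, the interaction of GFP and treatment, was 0.78 ± 0.46. Without KT13 and KT21 the change was 2.03 ± 0.32 in GFP+ and 0.83 ± 0.25 in GFP- cells, and the interaction 1.20 ± 0.41. Leaving out KT23, the library with the highest Rgs8 level, gave a change of 1.18 in GFP+ cells and an interaction of 0.35.

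By the size of its fold change with anti-PD-L1 Rgs8 had rank 181 from the top of 14173 genes in GFP+ cells and rank 559 in GFP- cells. Without KT13 and KT21 it had ranks 336 and 691 of 14747 genes. Between GFP+ and GFP- cells its log2 fold change was -0.51 ± 0.33 (SE) without treatment and 0.27 ± 0.32 after anti-PD-L1. With 10 libraries these were -0.80 ± 0.30 and 0.40 ± 0.28. The second of these turned to -0.15 without KT23.

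Markers of several cell types differed between the treatments within a GFP population, and macrophage markers did so in both. The summed level of 10 macrophage markers was 153 to 218 CPM in non-treated GFP- and 201 to 275 CPM in non-treated GFP+ libraries, against 75.8 to 131 CPM and 84.4 to 164 CPM after anti-PD-L1, and no marker of this list was at 0 throughout. C1qa, a complement gene of macrophages, fell by 1.14 on the log2 scale with anti-PD-L1 in GFP+ cells (edgeR adjusted p = 0.0441, 10 libraries) and by 0.97 in GFP- cells (edgeR adjusted p = 0.0443, 10 libraries). With 12 libraries its edgeR adjusted p-values were 0.284 and 0.691. Of the 9 macrophage markers tested, 7 had negative and 2 positive changes with treatment in GFP+ cells, and all 9 were negative in GFP- cells. The 2 positive ones were Adgre1 (0.55 ± 0.75, SE) and Cd68 (0.13 ± 0.20) with 12 libraries. The sum of the 9 T and CD8 markers was higher after treatment without overlap in both populations. It was 5015 to 5195 CPM against 5560 to 5882 CPM in GFP- cells and 4335 to 4737 CPM against 5077 to 6655 CPM in GFP+ cells. Of the 9 single changes, 7 were positive and 2 negative in GFP- cells, and all 9 were positive in GFP+ cells (12 libraries). Single markers could overlap, as Cd3d did in GFP+ cells (662 to 1093 CPM against 784 to 1114 CPM). Cd8a itself was called higher with anti-PD-L1 in GFP+ cells with 10 libraries, by 0.55 ± 0.11 (SE) on the log2 scale (edgeR adjusted p = 0.0103), and its difference was 0.60 ± 0.12 with 12 libraries (edgeR adjusted p = 0.0946). The sum of the 5 NK markers was higher without overlap in GFP- cells (167 to 230.2 CPM against 244 to 269.6 CPM). It overlapped in GFP+ cells, where KT21 had 137 CPM and the other treated libraries 267 and 287 CPM. As single genes these markers did not rise together, with 2 positive and 3 negative changes with treatment in each population (12 libraries). Their median log2 fold change was -0.42 in GFP- and -0.099 in GFP+ cells. The sum of the 7 stroma and vessel markers was lower without overlap in GFP+ cells (32.4 to 72.2 CPM against 10.4 to 25.6 CPM) and overlapped in GFP- cells (19.8 to 47.8 CPM against 9.41 to 22.6 CPM). The sum of the 6 tumor epithelium markers was likewise lower without overlap in GFP+ cells (209.9 to 302 CPM against 135 to 198 CPM) and overlapped in GFP- cells (232 to 324 CPM against 201 to 305 CPM). Most of this sum was Cdh1, which alone overlapped in GFP+ cells (177.8 to 272 CPM against 126 to 178.2 CPM). The sum of the 4 CD4 and Treg markers was higher without overlap in GFP- cells (212 to 271 CPM against 282 to 324 CPM) and overlapped in GFP+ cells (118 to 183 CPM against 97.6 to 321 CPM). In GFP- cells most of this sum was Ctla4, with 134 to 192 CPM against 204 to 232 CPM. Foxp3 did not rise with it, at -0.068 ± 0.34 (SE, log2, 12 libraries), and Cd4 was at 0 in the treated GFP- libraries. The sum of the 6 red cell and platelet markers overlapped in both populations, and the neutrophil and dendritic cell lists each summed to at most 3.40 CPM in any library. Gp9 of platelets was the 1 marker at 0 throughout. The part of these cells in the level of Rgs8 was not tested.

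The 3 genes of highest level were Rgs2, Rgs1 and Rgs16, all of the R4 class, which made up 87.4% to 90.6% of the summed CPM of the 8 genes in every library but KT21, where they made up 78.0%. Rgs2 favors the Gq class of alpha subunits. It had 955, 874 and 969 CPM in non-treated GFP- cells, 928, 849.7 and 1064 CPM in non-treated GFP+ cells, 888, 883 and 1204 CPM in anti-PD-L1 GFP- cells and 985, 599.5 and 1265 CPM in anti-PD-L1 GFP+ cells. All 4 groups overlapped, and the 2 highest values belonged to KT23 and KT24. Its log2 fold change with anti-PD-L1 was 0.0041 ± 0.22 (SE) in GFP+ cells (edgeR adjusted p = 0.9997) and 0.088 ± 0.22 in GFP- cells (edgeR adjusted p = 1).

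Rgs1, which is induced in activated lymphocytes and dampens their response to chemokines, had 481, 526 and 464 CPM in non-treated GFP- cells and 394, 425 and 393 CPM in non-treated GFP+ cells. After anti-PD-L1 it had 391, 498 and 588 CPM in GFP- cells and 399.7, 157 and 554 CPM in GFP+ cells. The non-treated GFP+ libraries lay below all non-treated GFP- libraries, while the groups after anti-PD-L1 overlapped. In non-treated cells 6.63% of all tested genes were separated in this direction, and Rgs1 alone of the 8 had no overlap between the GFP groups there. The fitted difference, -0.28 ± 0.31 (SE), did not pass the test (edgeR adjusted p = 0.939), and with 10 libraries it was -0.26 ± 0.15 (edgeR adjusted p = 0.625). The summed T and CD8 markers were separated in the same direction (4335 to 4737 CPM in GFP+ against 5015 to 5195 CPM in GFP- non-treated cells), and their part in it was not tested.

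Rgs16, the neighbor of Rgs8 on chromosome 1, is another gene of activated T cells. Its levels were 326, 289.7 and 300.3 CPM in non-treated GFP- cells and 266, 298 and 313 CPM in non-treated GFP+ cells. They were 333, 379.6 and 325 CPM in anti-PD-L1 GFP- cells and 379, 144 and 520.2 CPM in anti-PD-L1 GFP+ cells. Library KT21, with 144 CPM, was the lowest of all 12 and KT23, with 520.2 CPM, the highest, so the anti-PD-L1 GFP+ group spanned the whole range. The change with anti-PD-L1 in GFP+ cells was 0.25 ± 0.31 (SE) on the log2 scale (edgeR adjusted p = 0.988). With 10 libraries it was 0.56 ± 0.14, with both anti-PD-L1 GFP+ libraries above both non-treated GFP+ libraries, and still missed the threshold (edgeR adjusted p = 0.0791). Of all tested genes, 19.9% were separated in this direction in that comparison of 2 libraries against 2. The change in GFP- cells was 0.18 ± 0.31 with 12 and 0.18 ± 0.11 with 10 libraries.

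Rgs3, which also acts on Gi and Gq and whose longer forms carry domains outside the RGS domain, was measured between 52.6 and 96.0 CPM. It had 55.0, 62.3 and 52.6 CPM in non-treated GFP- cells, against 96.0, 62.1 and 75.1 CPM in non-treated GFP+ cells, and these groups overlapped. The log2 difference was 0.46 ± 0.20 (SE; unadjusted p = 0.0376, edgeR adjusted p = 0.802), and 0.28 ± 0.14 without KT13 and KT21 (edgeR adjusted p = 0.586). After anti-PD-L1 it had 59.3, 68.9 and 69.5 CPM in GFP- cells and 66.3, 95.8 and 61.5 CPM in GFP+ cells. The highest value of each GFP+ group was the library that stood apart, KT13 or KT21.

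Rgs10 and Rgs14 belong to the R12 class. Rgs10 is a small protein of that class, and Rgs14 carries a motif that binds resting Gi alpha subunits as well. Rgs10 had 73.3, 56.3 and 69.0 CPM in non-treated GFP-, 33.3, 49.6 and 59.6 CPM in non-treated GFP+, 63.8, 70.7 and 76.9 CPM in anti-PD-L1 GFP- and 52.0, 57.7 and 65.5 CPM in anti-PD-L1 GFP+ cells. Its mean was lower in GFP+ cells under both treatments, with overlap in each. The log2 difference was -0.48 ± 0.20 (SE) without treatment (edgeR adjusted p = 0.782) and -0.27 ± 0.20 after anti-PD-L1 (edgeR adjusted p = 0.993). Without KT13 and KT21 these differences were -0.28 ± 0.16 (edgeR adjusted p = 0.628) and -0.26 ± 0.16 (edgeR adjusted p = 0.983). Rgs14 had 41.8, 35.4 and 34.4 CPM in non-treated GFP-, 23.6, 48.6 and 32.5 CPM in non-treated GFP+, 40.3, 57.4 and 42.1 CPM in anti-PD-L1 GFP- and 35.3, 35.3 and 45.8 CPM in anti-PD-L1 GFP+ cells. Its groups overlapped in all 4 comparisons, and the fitted change of largest size, 0.33 ± 0.24 with anti-PD-L1 in GFP- cells, did not pass the test (edgeR adjusted p = 1).

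Rgs19, also called GAIP, is of the RZ class, whose members carry a string of cysteines. It had 36.8, 33.2 and 30.9 CPM in non-treated GFP-, 31.3, 27.4 and 30.7 CPM in non-treated GFP+, 32.8, 37.5 and 38.4 CPM in anti-PD-L1 GFP- and 27.8, 44.5 and 29.8 CPM in anti-PD-L1 GFP+ cells. These groups overlapped with 12 libraries. Without KT13 and KT21, all GFP+ libraries (27.4 to 30.7 CPM) lay below all GFP- libraries (30.9 to 38.4 CPM), a separation that 1.33% of tested genes showed in this direction. The fitted differences were then -0.21 ± 0.17 (SE) without treatment (edgeR adjusted p = 0.758) and -0.33 ± 0.17 after anti-PD-L1 (edgeR adjusted p = 0.964).

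None of the 8 genes was called at an adjusted p under 0.05 in any of the 4 comparisons or the interaction with 12 libraries. The background was equally sparse, with 0.00706% of genes called for GFP in non-treated cells, 0.0282% for GFP after anti-PD-L1, 0.0141% for treatment in GFP+ cells, and 0% for treatment in GFP- cells and for the interaction. At an unadjusted p under 0.05 edgeR had 857, 578, 955, 487 and 295 genes in the same order with 12 libraries. Among the 7 genes other than Rgs8 it then had 2 (Rgs3 and Rgs10) in the first and 0 in the others. With 10 libraries edgeR called 0.339%, 0.17%, 0.563%, 0.373% and 0% of 14747 genes. Genes called higher and lower were 0.115% and 0.224% for GFP in non-treated cells, 0.0949% and 0.0746% for GFP after anti-PD-L1, 0.251% and 0.312% for treatment in GFP+ cells and 0.0678% and 0.305% for treatment in GFP- cells. Of the 8 edgeR then called Rgs8 alone, for treatment in GFP+ cells, the comparison it was chosen on. The median log2 fold change of the 8 was -0.13 for GFP in non-treated cells and -0.076 after anti-PD-L1, and 0.17 for treatment in GFP+ and 0.14 in GFP- cells, while the medians of all genes ran from -0.0065 to 0.0024. In GFP- cells all 8 fitted changes with anti-PD-L1 were positive, from 0.0055 (Rgs1) to 0.83 (Rgs8). DESeq2 called 1 of the 8 with 12 libraries, again Rgs8 for treatment in GFP+ cells, where it called 0.697% of the genes it tested. Rgs8 was chosen on this comparison of the same counts, so neither call is a test of its change. DESeq2 called 0 of the 8 for GFP in non-treated cells (0.374% of genes), for GFP after anti-PD-L1 (0.375%), for treatment in GFP- cells (0.233%) and for the interaction (0%).

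Whether the libraries of the groups overlapped was read in the same way for all genes. With 12 libraries 1 of the 8 (Rgs1) was lower without overlap for GFP in non-treated cells, where 6.19% of all tested genes were higher and 6.63% lower without overlap, and 0 of the 8 were separated for GFP after anti-PD-L1, where 5.31% were higher and 5.33% lower. For treatment 1 of the 8, Rgs8, was separated, and it was higher, in GFP+ cells (all genes 4.66% higher and 5.67% lower), in GFP- cells (6.08% higher and 6.26% lower) and over all libraries (0.289% higher and 0.55% lower). Over all libraries 0 of the 8 were separated between GFP+ and GFP- (0.437% higher and 0.529% lower). Without KT13 and KT21, Rgs1, Rgs8 and Rgs19 were lower without overlap in non-treated GFP+ cells (12.4% higher and 13% lower among all genes), Rgs19 was lower in anti-PD-L1 GFP+ cells (11.5% higher and 10.8% lower), and Rgs8 and Rgs16 were higher with treatment in GFP+ cells (19.9% higher and 19.7% lower). In GFP- cells the libraries, and so the values, were the same in both sets (6.08% higher and 6.26% lower). Over all 10 libraries Rgs8 was higher with treatment (1.14% higher and 1.09% lower) and Rgs19 lower in GFP+ cells (1.21% higher and 1.33% lower).

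**Figure D2:**
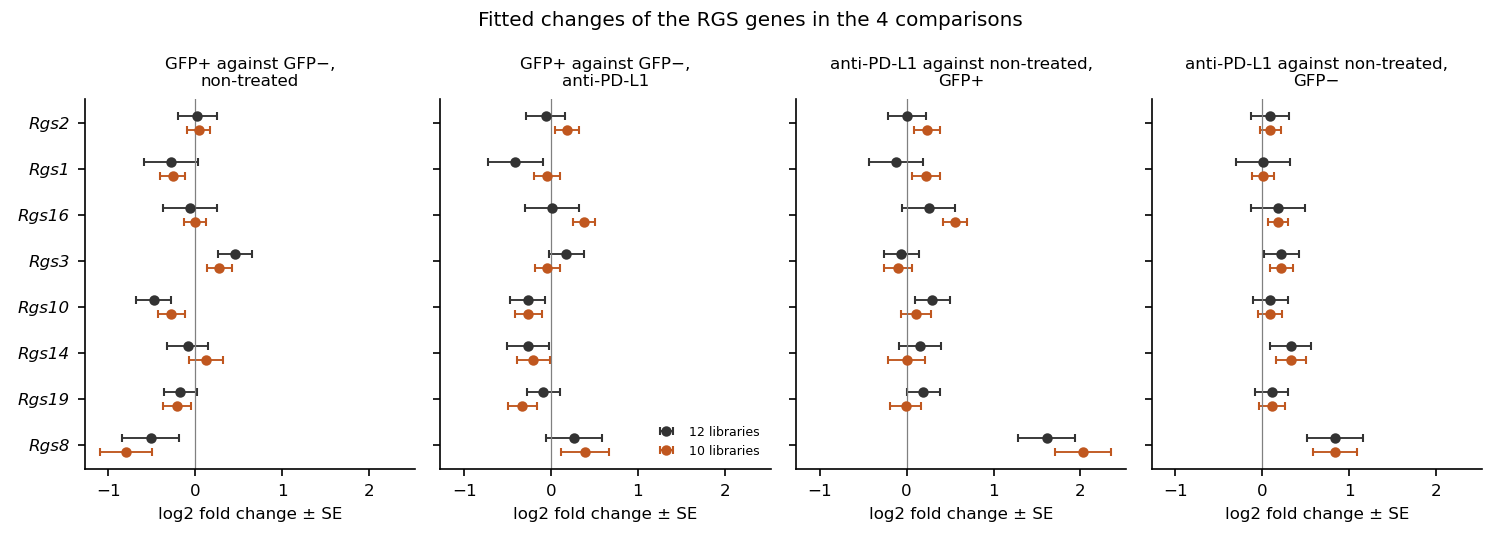
Fitted log2 fold changes ± SE of the 8 RGS genes in the 4 comparisons, with 12 libraries (black) and with the 10 that leave out KT13 and KT21 (orange). Rgs8 lies at 1.61 and 2.03 for anti-PD-L1 in GFP+ cells, while the other 7 lie between -0.13 and 0.30 with 12 libraries.

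Set against the other 7 genes within each library, Rgs8 was low everywhere but less so after treatment. The log2 level of Rgs8, as log2(CPM + 0.5), minus the mean of the other 7 was -3.43 ± 0.32 (SD, n = 3 in each group) in non-treated GFP- cells, -3.84 ± 0.54 in non-treated GFP+ cells, and after anti-PD-L1 it was -2.74 ± 0.11 in GFP- and -2.37 ± 0.46 in GFP+ cells. The 6 non-treated libraries ran from -4.31 to -3.15 and the 6 anti-PD-L1 libraries from -2.87 to -1.96. As a share of the summed CPM of the 8 genes, Rgs8 was 0.326% to 0.716% in non-treated and 0.857% to 1.79% in anti-PD-L1 libraries. The sum itself overlapped between treatments, with 1766 to 1982 CPM without treatment and 1155 (KT21) to 2581 CPM (KT23) after it. In the fits, the change of Rgs8 with anti-PD-L1 was above the median of the other 7 by 1.46 in GFP+ and by 0.72 in GFP- cells on the log2 scale.

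**Figure D3:**
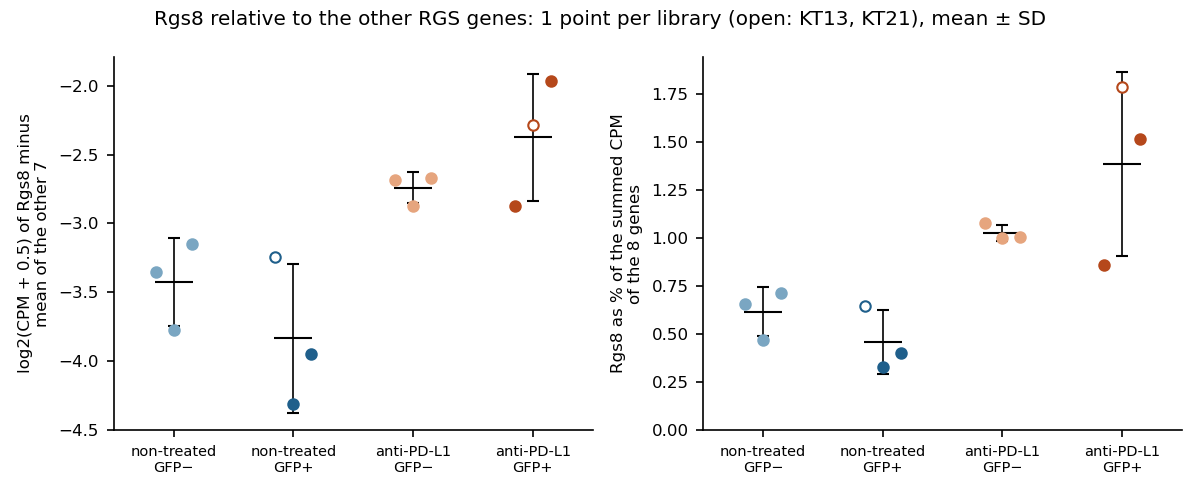
Rgs8 in each library relative to the other RGS genes, on the left as log2(CPM + 0.5) minus the mean of the other 7 and on the right as a percentage of the summed CPM of all 8, with 1 point per library (open for KT13 and KT21) and the mean ± SD of 3. The anti-PD-L1 libraries lie between -2.87 and -1.96 on the left, above the non-treated ones at -4.31 to -3.15.

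Dhx9, C230024C17Rik, Rgs16 and Glul, which lie within 200 kb of Rgs8 or Rgs16 and passed the filter, showed no change that passed the test. For anti-PD-L1 in GFP+ cells their log2 fold changes were -0.34 ± 0.16 (SE; Dhx9, an RNA helicase), 0.47 ± 0.88 (C230024C17Rik, a long non-coding RNA), 0.25 ± 0.31 (Rgs16) and -0.12 ± 0.18 (Glul, glutamine synthetase), with edgeR adjusted p-values of 0.73, 0.9997, 0.988 and 0.995. In GFP- cells they were 0.21, -1.03, 0.18 and -0.14, with an adjusted p of 1 for each by edgeR. C230024C17Rik rested on only 278 counts over 12 libraries. Gm29529 and Gm28513, which are annotated antisense within or across Rgs8 and Rgs16, had 0 counts in every library, and whether the authors counted by strand is not given in the sources used here.

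**Figure D4:**
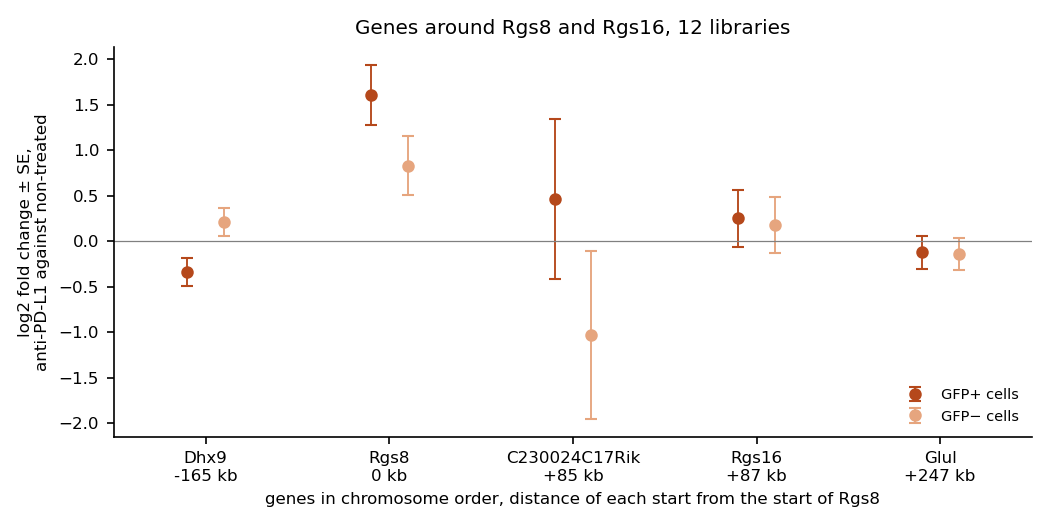
Log2 fold changes ± SE with anti-PD-L1 in GFP+ cells (dark) and GFP- cells (light), 12 libraries, for Rgs8, Rgs16, Dhx9, C230024C17Rik and Glul, in chromosome order with the distance of each start from the start of Rgs8. Rgs8 lies at 1.61 and 0.83, and Rgs16, 87.3 kb along, at 0.25 and 0.18.

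KT13 and KT21 differed from their own groups in different RGS genes. In KT21, Rgs1 (157 CPM), Rgs2 (599.5 CPM) and Rgs16 (144 CPM) were below all other 11 libraries and Rgs19 (44.5 CPM) was above them all, where 18.4% of all tested genes were below and 16.5% above all others in this library. Relative to the mean of the other 2 libraries of its group, on the log2(CPM + 0.5) scale, Rgs1 lay at -1.58, Rgs2 at -0.90 and Rgs16 at -1.62, and Rgs8 at -0.31. In KT13, Rgs3 (96.0 CPM) was above all other libraries and Rgs10 (33.3 CPM) and Rgs14 (23.6 CPM) were below them, with 16.8% of all genes above and 14.0% below. Rgs8 stayed within the range of the other libraries in both.

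**Figure D5:**
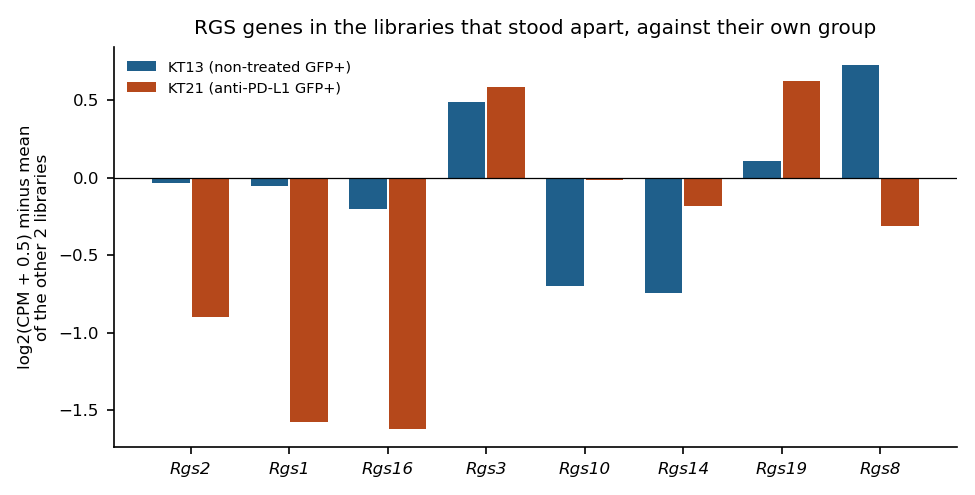
Log2(CPM + 0.5) of the 8 RGS genes in KT13 and KT21 minus the mean of the other 2 libraries of the same group. Rgs1 and Rgs16 lie at -1.58 and -1.62 in KT21, and Rgs10 and Rgs14 at -0.70 and -0.74 in KT13.

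The remaining 16 RGS genes and RGS-binding partners were low. Rgs12 and Rgs11 passed the filter, with means of 3.08 and 2.13 CPM, and Rgs9 had 0.37 CPM and was below it. Rgs4 and Rgs13 had no count in any library. Rgs12, of the R12 class, had 1.30 to 2.94 CPM in non-treated GFP- and 3.20 to 5.98 CPM in non-treated GFP+ cells, which did not overlap, where 6.19% of tested genes were separated in this direction. Its log2 difference of 1.16 ± 0.53 (SE) did not pass the test (edgeR adjusted p = 0.818). Rgs11 changed by 0.50 ± 0.54 with anti-PD-L1 in GFP+ cells (edgeR adjusted p = 0.974).

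Transcripts of proteins that share an RGS-like domain ranged in mean level from 0.57 CPM (Grk3) to 344 CPM (Arhgef1). All 14 listed passed the filter, led by Arhgef1 (344 CPM), an exchange factor that G alpha subunits activate, and by the receptor kinases Grk2 (204 CPM) and Grk6 (93.2 CPM). None of the 14 was called by edgeR in a comparison with 12 or with 10 libraries, and at most 1 of them had an unadjusted p under 0.05 in any comparison. Their median log2 fold change was -0.094 with anti-PD-L1 in GFP+ cells and -0.067 in GFP- cells.

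Genes of G protein subunits were led by Gi. Gnai2, the main Gi alpha subunit of lymphocytes, had 695 to 1019 CPM, the Gs alpha gene Gnas 344 CPM and Gna13 136 CPM on average, and 9 of 13 alpha subunit genes passed the filter. Gnb2 (180.3 CPM), Gng5 (161 CPM) and Gnb1 (137 CPM) led the beta and gamma subunits, of which 9 of 17 passed. None of these was called by edgeR in any comparison with 12 or 10 libraries, and at most 3 genes of a list had an unadjusted p under 0.05 in any of them. The 9 other regulators, led by Arrb2 (324 CPM), an arrestin, Gpsm3 (69.9 CPM) and Ric8a (48.9 CPM), held no call either, with at most 1 unadjusted p under 0.05 in a comparison. Medians of the lists with anti-PD-L1 in GFP+ cells were -0.068 for alpha subunits, 0.19 for beta and gamma subunits and 0.14 for the other regulators on the log2 scale.

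All 18 genes listed as Gi-coupled receptors of T cells passed the filter, and with 12 libraries none was called by edgeR, with at most 5 unadjusted p-values under 0.05 in a comparison. The list was set by gene name, and the coupling of each receptor was not examined. Cxcr6 (304 CPM), Cx3cr1 (173 CPM) and P2ry10 (152 CPM) had the highest levels. Cxcr4, the receptor of CXCL12, was 0.64 ± 0.20 (SE) higher in GFP+ than GFP- non-treated cells on the log2 scale (edgeR adjusted p = 0.596) and was called with 10 libraries, where it was 0.69 ± 0.15 higher (edgeR adjusted p = 0.038). After anti-PD-L1 its difference between GFP+ and GFP- cells was 0.68 ± 0.15 with 10 libraries (edgeR adjusted p = 0.0537). Markers of cell type differed in the same 10-library comparisons. In non-treated cells the CD8 genes Cd8b1 (-0.69 ± 0.13, edgeR adjusted p = 0.0159) and Cd8a (-0.47 ± 0.099, edgeR adjusted p = 0.038) were called lower in GFP+ cells. Klrb1c, an NK cell receptor gene, was called higher in GFP+ cells both without treatment (1.14 ± 0.21, edgeR adjusted p = 0.0159) and after anti-PD-L1 (1.28 ± 0.22, edgeR adjusted p = 0.00764). It was the only call among 5 NK markers, of which 4 had positive and 1 a negative difference in each comparison. In non-treated cells the summed NK markers overlapped, with 165 to 223 CPM in GFP+ and 167 to 230 CPM in GFP- cells (12 libraries). The part of these markers in the Cxcr4 difference was not tested. Cxcr6 differed by 0.67 ± 0.16 with anti-PD-L1 in GFP+ cells with 10 libraries (edgeR adjusted p = 0.0556). Of 9 Gs-coupled receptors 7 passed the filter, led by Gpr65 (62.0 CPM), Adora2a (51.3 CPM) and Ptger4 (46.1 CPM), and Adora2a, whose regulatory sequences drive the sorted GFP, was called for GFP under both treatments.

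Across libraries, the genes most like Rgs8 by Pearson's r of log2(CPM + 0.5) were not RGS genes. Over 12 libraries they were 2310031A07Rik (r = 0.926), Sdcbp2 (0.907), Gpr162 (0.903), Agpat4 (0.898) and Plek (0.897). Over 10 libraries they were Agpat4 (0.978), Slc2a3 (0.942), Ubl5 (0.941), Gpr162 (0.932) and 2310031A07Rik (0.930). Agpat4, Gpr162 and 2310031A07Rik were in both. Among the other 7 RGS genes r ran from 0.011 (Rgs3) to 0.43 (Rgs10) over 12 libraries, where Rgs16 had 0.28. Over 10 libraries it ran from -0.035 (Rgs3) to 0.79 (Rgs16). Rgs2 then had 0.62, Rgs10 0.58, Rgs1 0.48, Rgs19 0.31 and Rgs14 0.30. The libraries share their groups, treatment and depth in these values, which describe likeness only. The 5 were taken from all genes that passed the filter.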

How the data were processed

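QuantSeq 3′ libraries of CD8+ T cells were measured in 12 samples, grouped by their labels. The authors deposited raw read counts per Ensembl gene, made according to the study's methods by trimming with Cutadapt, aligning to mm10 with HISAT2 and counting with featureCounts. The submitters' processing notes give cutadapt 1.7 and Subread 1.6.4. The Ensembl release is not given in the sources used here. Symbols came from GENCODE vM21 and matched 52403 of 52636 identifiers.

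Here, counts were normalized by TMM and filtered by filterByExpr on the 4 groups (edgeR 4.0.16, R 4.3.3). Genes were tested in 1 edgeR quasi-likelihood fit over 12 libraries without covariates, for the 4 comparisons and their interaction, with Benjamini-Hochberg adjustment over all genes tested and calls at an adjusted p under 0.05. The fit was tested on simulated data. SEs come from the same fits. CPM are TMM-normalized, and log levels use log2(CPM + 0.5). Total counts were 11292699 to 19023900. Intervals of counting error take counts as Poisson. Libraries of 1 group differed from each other by a chi-square of at least 12.6 per degree of freedom, so none was a copy of another.

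The 8 genes and the gene lists were chosen with earlier results of these data known, and the leaving out of KT13 and KT21 likewise. Named besides the 8 are, from each list of RGS-related, G protein and receptor genes, those called with 12 or 10 libraries and the 3 of highest mean CPM, the 5 genes most like Rgs8, its chromosomal neighbors that passed the filter (1 is not reported here), Adora2a, and a few markers of other cells. The alternatives were DESeq2 1.42.0, upper-quartile normalization, no filter beyond 1 count, at least 10 counts in every library, a fit on just the 2 groups of a comparison, a pseudocount of 5, and leaving out KT13 with KT21 or each library.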

Additional observations from a re-analysis of the deposited data

How the results depend on the processing

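The number of genes called, 1 for GFP in non-treated cells, 4 for GFP after anti-PD-L1, 2 for treatment in GFP+ cells and 0 for treatment in GFP- cells, became 53, 47, 93 and 33 with DESeq2, 78, 49, 123 and 60 with no filter beyond 1 count, and 50, 25, 83 and 55 without KT13 and KT21. With a fit on just the 2 groups of a comparison it was 0 for GFP after anti-PD-L1, 0 for treatment in GFP+ cells and 51 for treatment in GFP- cells. For the interaction it was 0, and 10 with no filter beyond 1 count. Leaving out 1 library gave 0 to 6, 0 to 7, 0 to 34 and 0 to 28 genes for the 4 comparisons, with the highest count without KT21 in all but GFP after anti-PD-L1, where it was without KT13. The count of RGS genes called moved from 0 to 1, for treatment in GFP+ cells, with DESeq2, with no filter beyond 1 count and without KT13 and KT21, and the gene was Rgs8 each time. With each single library left out this count was 0 in every comparison. Rgs8 was chosen on these counts, so its calls describe the settings and do not test its change. The causes of these moves were not tested.

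Of the fold changes of single RGS genes under settings other than leaving out 1 library, 216 kept their sign and their side of the threshold, 3 (Rgs8 for treatment in GFP+ cells) came to pass it and 13 turned in sign, none of them past the threshold with 12 libraries. Without KT13 and KT21 these were Rgs14 for GFP in non-treated cells (0.12), Rgs2 (0.18) and Rgs3 (-0.045) for GFP after anti-PD-L1, Rgs1 (0.22) and Rgs19 (-0.013) for treatment in GFP+ cells, and Rgs1 (0.22), Rgs2 (0.14) and Rgs19 (-0.12) in the interaction. Rgs2 for treatment in GFP+ cells was -0.023 with upper-quartile normalization, -0.0089 with at least 10 counts in every library and -0.00014 with just 2 groups in the fit, and Rgs1 for treatment in GFP- cells was -0.012 and -0.0025 under the first pair of these. Leaving out 1 library, the values that crossed 0 ran as follows. For GFP in non-treated cells Rgs2 ran from -0.071 to 0.096 and Rgs14 from -0.40 to 0.12. For GFP after anti-PD-L1 Rgs2 ran from -0.30 to 0.18, Rgs3 from -0.045 to 0.33, Rgs8 from -0.15 to 0.49, Rgs16 from -0.39 to 0.38 and Rgs19 from -0.33 to 0.035. For treatment in GFP+ cells Rgs1 ran from -0.53 to 0.24, Rgs2 from -0.25 to 0.25, Rgs3 from -0.28 to 0.12, Rgs14 from -0.061 to 0.47, Rgs16 from -0.15 to 0.62 and Rgs19 from -0.048 to 0.32, and in GFP- cells Rgs1 from -0.14 to 0.15 and Rgs2 from -0.069 to 0.16. In the interaction Rgs1 ran from -0.53 to 0.23, Rgs2 from -0.33 to 0.16, Rgs14 from -0.39 to 0.14, Rgs16 from -0.33 to 0.44 and Rgs19 from -0.16 to 0.21. Rgs8 kept its positive change with treatment without each library, at 1.18 to 1.90 in GFP+ and 0.68 to 0.95 in GFP- cells. No paired analysis was possible because the labels give each library its own code and no replicate number shared between groups. GFP+ and GFP- libraries alternate in the codes, but whether adjacent codes hold cells of the same pool of mice is not given in the sources used here, and a difference that is regular within such pools would not show in the overlap of groups.

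The counting error of Rgs8 reached 10.5% at its lowest count, 91.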
